A study of Arabidopsis thaliana with 56 samples.

Results

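H3K27me3 peaks of Arabidopsis thaliana endosperm were compared between wild type (WT) and plants labelled crwn1/2, for their width, their distribution along the chromosomes and their read density. The comparison drew on 6 peak lists, 3 of each genotype, out of 56 samples in the series. The lists were taken by their labels for tissue, antibody and genotype, and no measured value entered the choice. They held 32821 peaks on chromosomes 1 to 5, against 25670 peaks in the 6 leaf lists and 58527 peaks as deposited in all 12 lists, organelle peaks included.

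H3K27me3, the trimethylation of lysine 27 on histone H3, is deposited by Polycomb repressive complex 2 and marks silent genes, in Arabidopsis often as broad domains over whole developmental regulators. In endosperm, the nutritive tissue that arises from the fertilised central cell, the complex restrains growth and takes part in genomic imprinting. CRWN1 and CRWN2 belong to the CRWN family of lamina proteins, which line the inside of the plant nuclear envelope. The plant nuclear periphery is known to hold silent chromatin, including chromatin with H3K27me3.

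The labels gave the groups as WT and crwn1/2, named no allele, and gave no seed age for these libraries. Several siliques were pulverised together per preparation, 6C nuclei were sorted by fluorescence, and sorting was repeated until enough nuclei were at hand, so each library pooled many seeds. In CUT&RUN, an antibody brings a nuclease to its mark and the released fragments are sequenced. Nothing in the labels tied a library to separate plants, so every p-value below measures only the spread between libraries, which may be technical.

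Peaks had been called by the authors with epic2, which joins neighbouring enriched bins into broad islands, and each peak came with the number of reads inside it. Reads in peaks numbered 2195371, 2206360 and 2825736 in the 3 WT lists and 1594043, 513627 and 1148453 in the 3 crwn1/2 lists. Every WT list was above every crwn1/2 list, and crwn1/2 replicate 2 was the lowest. The mean in crwn1/2 was 0.451 times the mean in WT. The depth of the whole libraries was not analysed here. Because reads in peaks followed the genotype without overlap, depth and genotype cannot be told apart for width, covered length, density or distribution along the chromosomes.

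The lists were set against each other by the Jaccard index, the bases covered in both lists over the bases covered in either. It was 0.688 to 0.708 between WT lists and 0.531 to 0.613 between crwn1/2 lists. Between the genotypes it was 0.544 to 0.638. The WT lists thus resembled one another more than any resembled a crwn1/2 list, while the crwn1/2 lists shared no more with one another than with WT. Endosperm WT and leaf WT lists had an index of 0.513 to 0.567, below all WT pairs of endosperm, and leaf WT lists had 0.837 to 0.843 among themselves.

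The number of peaks was similar, and the peaks covered less of the genome in crwn1/2. There were 5669, 5503 and 5382 peaks in WT and 5407, 5342 and 5518 in crwn1/2, and these overlapped (exact two-sided permutation p = 0.5, n = 3 per genotype). Covered length was 24.4, 23.8 and 26.4 Mb in WT and 22.1, 16.7 and 22 Mb in crwn1/2. The mean was 24.9 ± 1.36 Mb in WT and 20.3 ± 3.09 Mb in crwn1/2 (SD, n = 3), with no overlap. Its exact permutation p was 0.1, the smallest that 3 against 3 lists allow, and 0.122 after adjustment over 11 summaries of the lists. No such comparison can pass 0.05 at this size.

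Mean peak width was 4306, 4325 and 4906 bp in WT and 4086, 3130 and 3994 bp in crwn1/2. The mean over lists was 4512 ± 341 bp against 3737 ± 527 bp (SD, n = 3 each; exact permutation p = 0.1, adjusted 0.122), a ratio of 0.828 with no overlap. Ordered by mean width, the 6 lists stood in the same order as by reads in peaks. Median width was 2850, 2700 and 3150 bp in WT and 2700, 2250 and 2700 bp in crwn1/2, and these values met at 2700 bp (exact permutation p = 0.3, adjusted 0.33). The 90th percentile was 8700, 9000 and 10200 bp in WT and 7950, 6000 and 7950 bp in crwn1/2, again without overlap (exact permutation p = 0.1, adjusted 0.122).

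**Figure D1:**
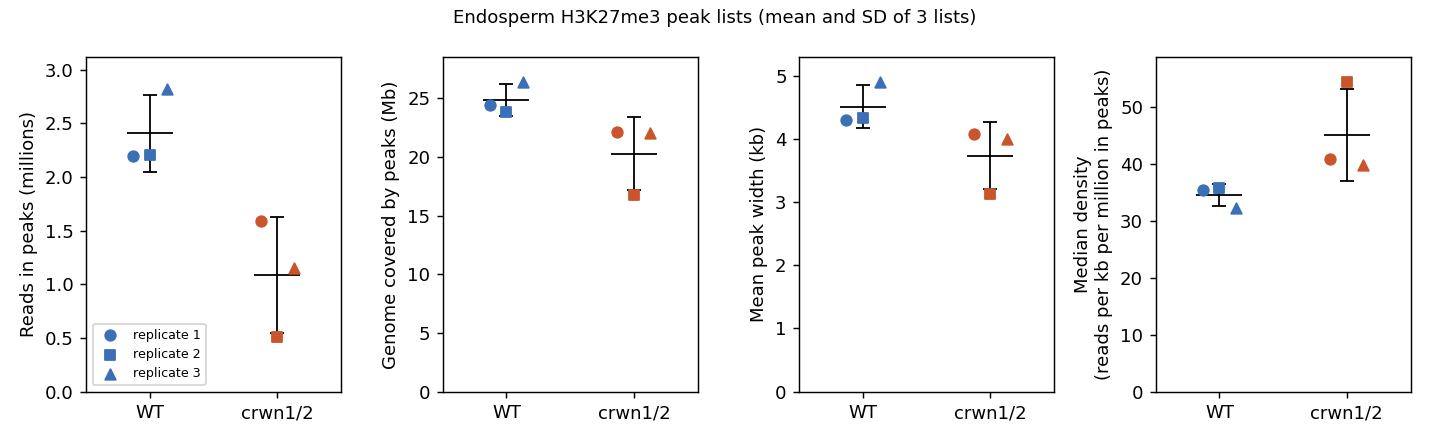
Reads in peaks (M), covered length in Mb, mean peak width in kb and median scaled read density, with a point for each list and the mean and SD of the 3 lists of each genotype. The 3 WT lists lie above the 3 crwn1/2 lists in the first 3 panels and below them in the fourth, and crwn1/2 replicate 2 is the farthest from WT in all 4.

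By number of peaks, the genotypes stood apart without overlap only from 5 to 20 kb. Peaks of 5 to 10 kb numbered 915, 957 and 1076 in WT and 735, 569 and 778 in crwn1/2. Peaks of 10 to 20 kb numbered 338, 350 and 447 in WT and 281, 152 and 279 in crwn1/2. The crwn1/2 means were 0.706 and 0.627 times the WT means, with no overlap in either class. Peaks of 2 to 5 kb were almost equal, with means of 2424 ± 113 and 2435 ± 169 (SD, n = 3). Peaks of 1 to 2 kb made up 26.9 ± 3.24% of WT peaks and 32.2 ± 3.91% of crwn1/2 peaks (SD, n = 3), and the lists of the genotypes did not overlap in that share. Peaks under 1 kb numbered 146 ± 55 in WT and 241 ± 130 in crwn1/2 (SD, n = 3), and overlapped.

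The widest class overlapped between the genotypes. Peaks of 20 kb or more numbered 102, 93 and 109 in WT and 95, 30 and 86 in crwn1/2, with a crwn1/2 mean of 0.694 times the WT mean and replicate 2 far below the others. The longest single peak was 53.25, 53.25 and 54 kb in the WT lists and 67.35, 55.2 and 83.1 kb in the crwn1/2 lists. All 3 crwn1/2 values were above all 3 WT values, although the crwn1/2 lists held fewer reads. Peaks of at least 10 kb held 30.2%, 30.6% and 34.5% of the covered length in the WT lists and 29.6%, 16.4% and 27.6% in the crwn1/2 lists, without overlap. The means were 31.8 ± 2.37% and 24.5 ± 7.11% (SD, n = 3; exact permutation p = 0.1, adjusted 0.122). Their difference of -7.25 percentage points was -9.76 to -3.18 with single lists left out.

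**Figure D2:**
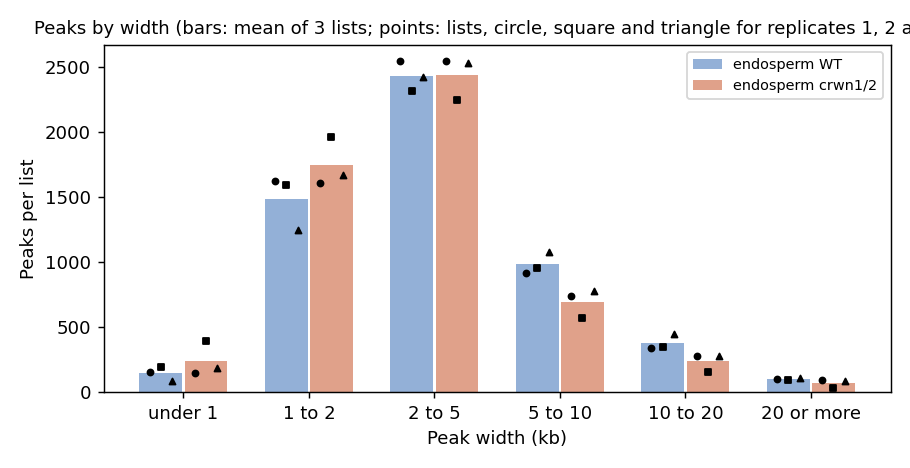
Number of peaks per list by peak width in kb, with bars for the mean of 3 lists and a point for each list. From 5 to 20 kb all 3 WT lists are above all 3 crwn1/2 lists, and the classes of 2 to 5 kb are level.

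The longest domains were found in both genotypes. Overlapping peaks of the 6 lists were merged into 6016 regions. The longest by mean covered length was chr1:19204501-19299149 (TAIR10), 94.65 kb long. Peaks covered 78.15, 82.8 and 82.65 kb of it in WT, in 10, 6 and 8 pieces. In crwn1/2 they covered 93.9, 73.35 and 92.55 kb, in 2, 10 and 3 pieces. In crwn1/2 replicates 1 and 3 the domain was thus called in fewer and longer pieces than in any WT list, and in replicate 2 in as many pieces as in WT replicate 1. The next longest regions did not share this: chr3:7635451-7719749 (84.3 kb) was called in 4, 10 and 4 pieces in WT and 8, 13 and 7 in crwn1/2. The region chr4:7866751-7950749 (84 kb) was called in 4, 5 and 5 pieces in WT and 7, 12 and 8 in crwn1/2.

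Domains seen in every list allowed the width of the same region to be compared. There were 2311 such regions, 38.4% of the 6016, and they held 85.1% to 87.2% of the peak reads in WT and 87.6% to 93.0% in crwn1/2. The median change in covered length over these regions was -0.25 on the log2 scale (-0.30 to -0.13 with single lists left out), and 79% of them had a negative change. With limma, 42 regions (1.82% of those tested) were shorter in crwn1/2 at an adjusted p under 0.05. The lists did not overlap in 549 regions (23.8%), 529 of them shorter and 20 longer in crwn1/2. No region was called longer, and 14 were longer at an unadjusted p under 0.05, against 415 shorter. By mean covered length over the 6 lists, the median log2 change was -0.23 for the 115 regions under 2 kb, -0.31 for the 952 of 2 to 5 kb, -0.28 for the 700 of 5 to 10 kb, -0.20 for the 358 of 10 to 20 kb and -0.08 for the 186 of 20 kb and more. The median covered length of the widest class was 28.7 kb in WT and 25.9 kb in crwn1/2, and that of the 2 to 5 kb class was 3.6 kb and 2.925 kb.

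The 3 regions with the largest called loss of length were domains of 7.95 to 12.6 kb in the outer chromosome arms, at least 12.5 Mb from a centromere. Region chr3:1072501-1080449 was covered over 6.9, 7.65 and 7.2 kb in WT and 2.25, 0.75 and 1.35 kb in crwn1/2. Its log2 change was -2.46 (SE 0.40, limma adjusted p = 0.0322). Region chr5:24942301-24954899 went from 9.3, 9.45 and 11.55 kb in WT to 3.15, 1.95 and 1.2 kb in crwn1/2, a log2 change of -2.37 (SE 0.36, limma adjusted p = 0.03). Region chr2:16430251-16439549 went from 7.5 ± 1.56 kb to 1.65 ± 0.654 kb (SD, n = 3), a log2 change of -2.26 (SE 0.38, limma adjusted p = 0.0322). In each, all 3 WT lists were above all 3 crwn1/2 lists. The count of shorter regions rested on single lists: it was 0 without WT replicate 1, 2 or 3, 21 without crwn1/2 replicate 3, and 82 (74 shorter and 8 longer) without crwn1/2 replicate 2.

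**Figure D3:**
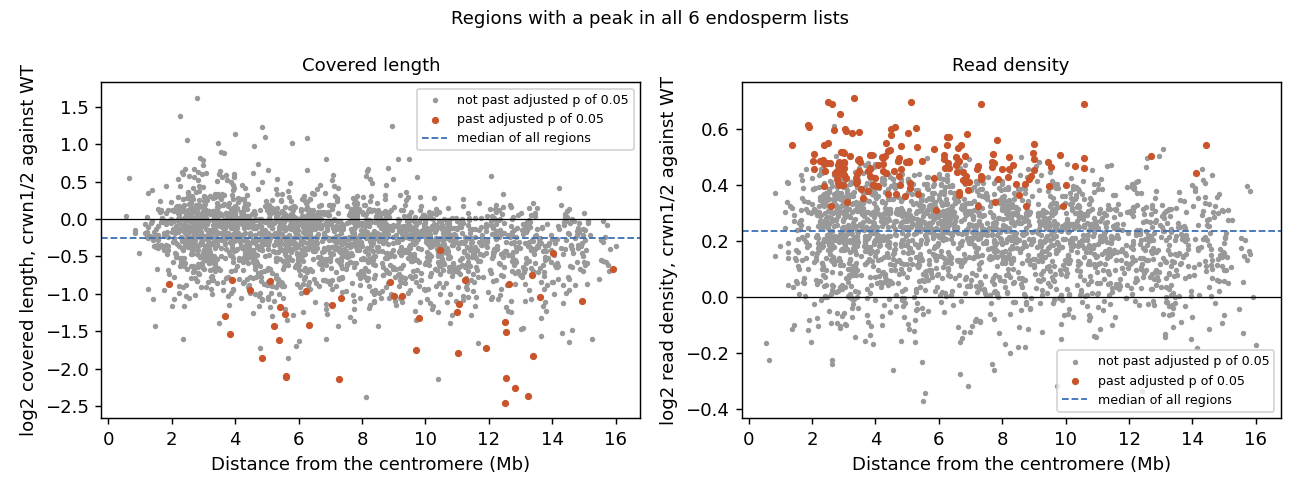
Change between genotypes on the log2 scale, in covered length (left) and in read density (right), against distance from the centromere in Mb, for the 2311 regions with a peak in all 6 lists. Grey points did not pass an adjusted p of 0.05 and orange points did; the dashed line is the median of all regions, at -0.25 for length and 0.24 for density.

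Along the chromosomes, peaks were sparse next to the centromere in both genotypes. In windows of 100 kb within 2 Mb of it, the median covered length was 5.85 kb in WT and 2.8 kb in crwn1/2, against 22.6 and 21 kb from 2 to 5 Mb. The share of each chromosome in the covered length hardly differed. Chromosome 1 held 29.8 ± 0.31% in WT and 29.8 ± 0.4% in crwn1/2 (SD, n = 3; exact permutation p = 1). Chromosomes 3 and 5 held slightly less in crwn1/2, by differences of -0.208 and -0.306 percentage points (crwn1/2 minus WT), with lists that did not overlap (exact permutation p = 0.1 each, adjusted 0.143 over 10 chromosome measures). The chromosome 2 and 4 shares overlapped.

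Within the arms, the covered length stood closer to the centromere in crwn1/2. Peaks at least 5 Mb from the centromere held 67.3%, 66.7% and 67.7% of the covered length in the WT lists and 63.3%, 65.3% and 64.8% in the crwn1/2 lists. The difference of means was -2.78 percentage points, from 67.3 ± 0.488% to 64.5 ± 1.04% (SD, n = 3; exact permutation p = 0.1, adjusted 0.133 over 12 distance measures). The groups did not overlap. The list with the fewest reads, crwn1/2 replicate 2, was the crwn1/2 list closest to WT here. All 3 crwn1/2 lists still held fewer reads than any WT list, so depth and genotype cannot be told apart for this share either. The same share counted in reads was 67.3 ± 0.41% in WT and 64.0 ± 1.2% in crwn1/2 (SD, n = 3; exact permutation p = 0.1, adjusted 0.133).

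By distance, 3 zones stood out. Within 2 Mb of the centromere, peaks covered 0.628, 0.667 and 0.719 Mb in WT and 0.414, 0.406 and 0.488 Mb in crwn1/2, a difference of means of -35.1%, and the number of peaks went from 211, 228 and 207 to 133, 154 and 157. This zone's share of the covered length was 2.57%, 2.80% and 2.72% in WT and 1.87%, 2.43% and 2.22% in crwn1/2, without overlap (exact permutation p = 0.1, adjusted 0.133). From 2 to 5 Mb the share was 30.1%, 30.5% and 29.6% in WT and 34.8%, 32.3% and 32.9% in crwn1/2. Here crwn1/2 was above WT in every list, while the covered length itself was 7.47 ± 0.3 Mb in WT and 6.79 ± 1.22 Mb in crwn1/2 (SD, n = 3) and overlapped.

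Beyond 10 Mb the share was 24.9%, 24.4% and 25.2% in WT and 19.4%, 23.3% and 22% in crwn1/2, again without overlap. Covered length there was 6.08, 5.80 and 6.65 Mb in WT and 4.30, 3.89 and 4.84 Mb in crwn1/2, a difference of means of -29.7%. Mean peak width in this outer zone was 4428 ± 347 bp against 3370 ± 431 bp (SD, n = 3), a difference of -23.9%, while within 2 Mb of the centromere it was 3125 ± 301 bp against 2952 ± 275 bp and overlapped. The number of peaks in the outer zone was 1430, 1379 and 1378 in WT and 1200, 1355 and 1325 in crwn1/2, also without overlap. Both zones thus held fewer peaks in crwn1/2, and the outer zone also narrower ones. From 5 to 10 Mb the shares were 42.4 ± 0.067% and 42.9 ± 0.936% (SD, n = 3) and overlapped, as did the number of peaks. Peaks were narrower in this zone too. Mean width was 4722 ± 387 bp in WT and 3871 ± 574 bp in crwn1/2 (SD, n = 3), a difference of -18% without overlap. Covered length in this zone differed by -17.4%, also without overlap.

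The zones beyond 10 Mb and from 2 to 5 Mb set the genotypes apart on every chromosome. The 2 to 5 Mb zone held more of a chromosome's covered length in every crwn1/2 list than in any WT list on each of the 5, with differences from 2.75 percentage points on chromosome 2 to 4.97 on chromosome 3. The zone beyond 10 Mb held less in every crwn1/2 list on each of the 5, with differences from -1.44 percentage points on chromosome 3 to -4.42 on chromosome 1. Within 2 Mb the crwn1/2 lists were below WT without overlap on chromosomes 1, 2 and 5, and overlapped WT on chromosomes 3 and 4.

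**Figure D4:**
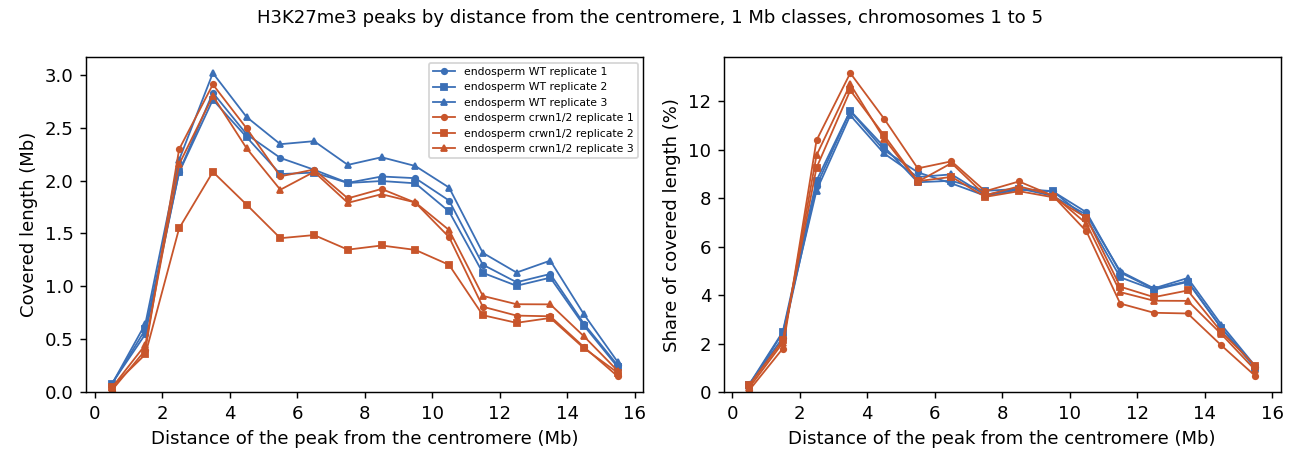
Covered length in Mb (left) and share of a list's covered length in percent (right) by distance of the peak from the centromere in Mb, with a line for each of the 6 lists. In the right panel the crwn1/2 lists lie above the WT lists from 2 to 5 Mb and below them from 11 to 15 Mb.

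**Figure D5:**
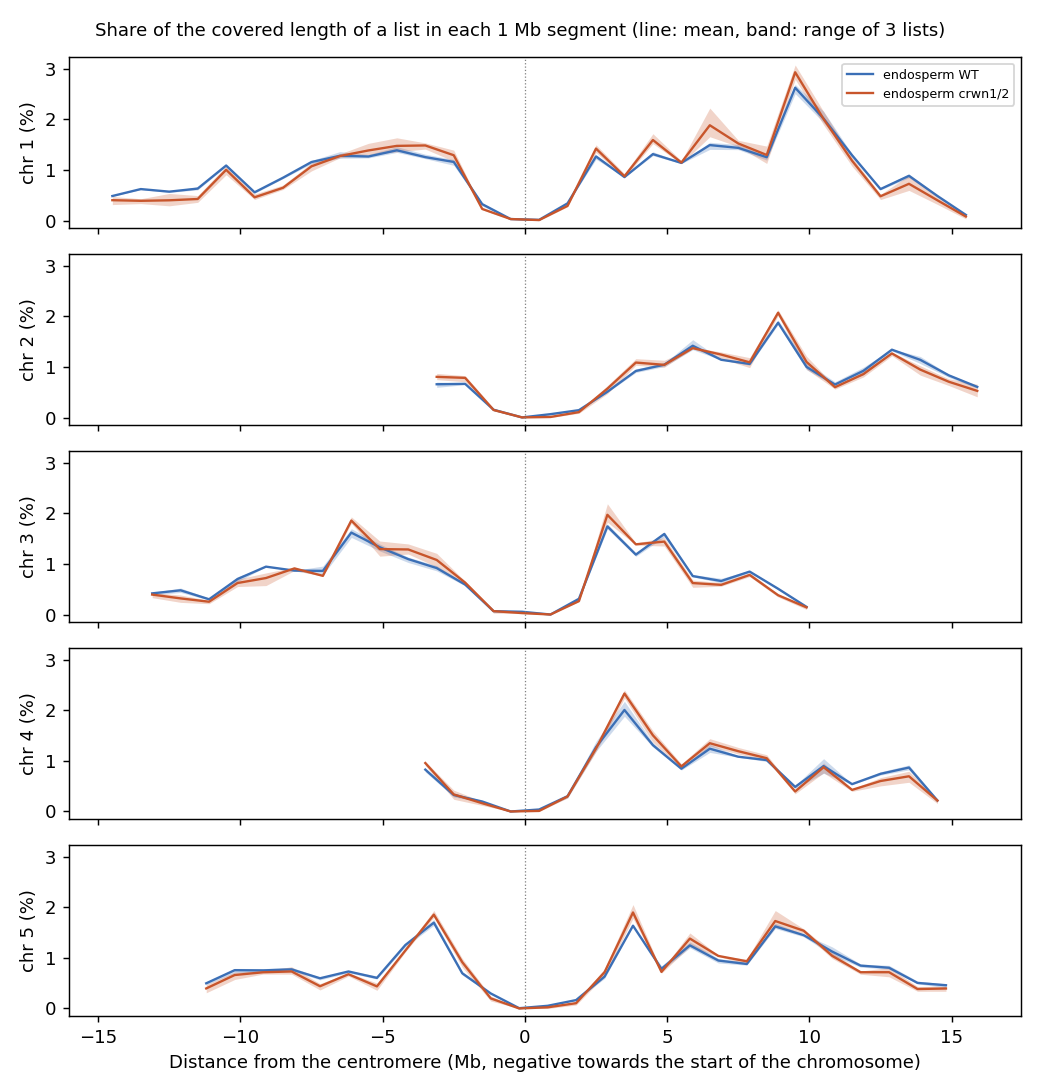
Share of a list's covered length in percent in segments of 1 Mb on chromosomes 1 to 5, by distance from the centromere in Mb, with the mean (line) and range (band) of the 3 lists of each genotype. On each chromosome the crwn1/2 line rises above WT near the flanks of the centromere and runs below it towards the outer arms.

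Windows of 100 kb showed where coverage was lost. With limma, 189 of 1067 windows (17.7%) had less covered length in crwn1/2 at an adjusted p under 0.05. The lists of the genotypes did not overlap in 404 windows (37.9%). In 402 of these crwn1/2 was lower and in 2 higher. No window was called higher by limma, and 1 was higher at an unadjusted p under 0.05, against 353 lower. The lower windows were 24 of 87 (27.6%) within 2 Mb of the centromere, 17 of 271 (6.27%) from 2 to 5 Mb, 67 of 395 (17%) from 5 to 10 Mb and 81 of 314 (25.8%) beyond 10 Mb. The median over all windows was -3.5 kb. After each list was scaled to the same covered length, 42 windows were higher and 81 lower in crwn1/2, and 29 of the 42 higher windows lay from 2 to 5 Mb. The count was 79 without WT replicate 3, 115 without crwn1/2 replicate 1 or 3, and 144 (127 lower and 17 higher) without the shallow crwn1/2 replicate 2.

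The largest loss of coverage was in chr1:3900001-4000000, 11.1 Mb from the centromere. Peaks covered 62.2, 54.7 and 52.6 kb of this window in WT and 22.95, 26.4 and 19.2 kb in crwn1/2, a change of -33.65 kb (SE 4.47, limma adjusted p = 0.000543). In chr3:4500001-4600000 the covered length was 56.7, 44.55 and 55.05 kb in WT and 16.5, 24 and 28.35 kb in crwn1/2, a change of -29.15 kb (SE 4.74, limma adjusted p = 0.00148). In chr5:23200001-23300000 it was 45.6, 37.35 and 51.9 kb in WT and 16.5, 16.8 and 21.75 kb in crwn1/2, a change of -26.6 kb (SE 4.27, limma adjusted p = 0.00148). All 3 windows lay in arms at least 9.05 Mb from a centromere, and in each the genotypes did not overlap. These calls held on leaving out any single list, with limma adjusted p of at most 0.02, and were lost when peaks were limited to an authors' log2 enrichment of at least 1 (limma adjusted p = 0.0756 for each).

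Reads in peaks, summed by the window that holds the peak centre, went both ways. They are given in RPM, reads per 1000000 reads in all peaks of a list. The fit also scaled the lists to a common level, which centres the changes. Higher and lower are thus relative to the reads in peaks of each list, and the split between them rests on this scaling. With edgeR, 103 of 1038 windows passed (9.92%), of which 51 (4.91%) were higher and 52 (5.01%) lower in crwn1/2. The lists of the genotypes did not overlap in 385 windows (37.1%). Of 76 windows tested within 2 Mb of the centromere, 0 were called higher and 10 lower. Of 267 from 2 to 5 Mb, 33 were higher and 3 lower, of 389 from 5 to 10 Mb, 17 were higher and 16 lower, and of 306 beyond 10 Mb, 1 was higher and 23 lower. The median log2 change was -0.43 within 2 Mb, 0.18 from 2 to 5 Mb, -0.05 from 5 to 10 Mb and -0.26 beyond 10 Mb.

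A list gives no count where it has no peak, and the fit entered such windows as 0. Of the 52 lower windows, 15 had no peak centre in any crwn1/2 list. Among the 934 windows with a peak centre in every list, a choice made after seeing the data, 102 passed by edgeR, 56 higher and 46 lower, and 85 of these were among the 103. Within 2 Mb of the centromere, 1 of 46 such windows was then lower, against 10 of 76 when the others were included, and the median log2 change was -0.05 in place of -0.43. From 2 to 5 Mb 34 of 255 were higher and 3 lower, and beyond 10 Mb 0 of 269 were higher and 22 lower.

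The total of called windows depended on single lists: 0 without WT replicate 1, 3 without WT replicate 2, 1 without WT replicate 3, 58 without crwn1/2 replicate 1, 3 without crwn1/2 replicate 3 and 172 without crwn1/2 replicate 2. With crwn1/2 replicate 2 left out, 77 windows were higher and 95 lower in crwn1/2. Higher windows were then 2 of 81 tested within 2 Mb, 45 of 268 from 2 to 5 Mb, 30 of 389 from 5 to 10 Mb and 0 of 307 beyond 10 Mb. Lower windows were 18, 6, 28 and 43 in the same zones.

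Among the windows with more reads, chr5:9200001-9300000, 2.45 Mb from the centromere, held 797, 789 and 539 RPM in WT and 1938, 1127 and 1613 in crwn1/2. Its log2 change was 1.21 (SE 0.25, edgeR adjusted p = 0.0353). Window chr3:10800001-10900000, 2.75 Mb from the centromere, held 507, 633 and 656 RPM in WT and 1590, 777 and 1497 in crwn1/2 (log2 change 1.18, SE 0.27, edgeR adjusted p = 0.0436). Both windows flank a centromere, and in both the crwn1/2 lists lay above WT, with replicate 2 the lowest of them. Window chr1:7800001-7900000 had the largest value, with 552 ± 132 RPM in WT and 1843 ± 249 in crwn1/2 (SD, n = 3) (log2 change 1.81, SE 0.19, edgeR adjusted p = 0.0106). It was 0.15 (edgeR adjusted p = 0.787) when peaks within 1 kb of each other were joined, which moves the centres of long peaks.

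The 3 windows with the largest fitted loss of reads had no peak centre in any crwn1/2 list, so neither a fold nor a test is given. Window chr2:4700001-4800000 held 593, 379 and 374 RPM in WT. Window chr1:13900001-14000000 held 203, 261 and 264 RPM in WT, and chr1:13700001-13800000 held 229, 144 and 204. They lay 1.15, 1.05 and 1.25 Mb from the centromere, in the zone where peaks were sparse in both genotypes. Of the 3 calls of gained reads, that on chromosome 1 was lost on leaving out 2 of the 6 lists in turn. Those on chromosomes 5 and 3 were lost on leaving out 5 of the 6, with edgeR adjusted p of up to 0.157. The gains on chromosomes 5 and 3 were also lost in 3 of 9 other settings each, with edgeR adjusted p of up to 0.279 and 0.663. Peaks at the stricter FDR of 1e-05 were 1 of these settings (edgeR adjusted p = 0.0569 and 0.0641).

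Regions found in every list of 1 genotype and none of the other were mostly WT regions at the authors' threshold. Of the 6016 regions, 171 (2.84%) had a peak in all 3 WT lists and in no crwn1/2 list, and 12 (0.199%) had a peak in all 3 crwn1/2 lists and in no WT list. With peaks limited to an authors' log2 enrichment of at least 1, this order turned, with 27 WT and 29 crwn1/2 regions. The WT regions had a median length of 3 kb, against 7.95 kb for the regions of all 6 lists. Of the 171, 20 lay within 2 Mb of the centromere, where 266 (4.42%) of all 6016 regions lay, and 29 (17%) from 2 to 5 Mb, against 30.0%. From 5 to 10 Mb there were 71 (41.5%, against 40.2%) and beyond 10 Mb 51 (29.8%, against 25.4%). The crwn1/2 regions lay from 2 to 5 Mb in 5 cases and from 5 to 10 Mb in 7. A further 711 regions had a peak in a single WT list and 790 in a single crwn1/2 list, so calls in 1 list were about as frequent in both genotypes. No list reports reads outside its peaks, so absence means only that no peak was called. With 1 list left out, the WT count was 293 without WT replicate 1, 258 without WT replicate 2, 258 without crwn1/2 replicate 2 and 314 without crwn1/2 replicate 3. The crwn1/2 count was 20 to 25 with a WT list left out, 34 without crwn1/2 replicate 1 or 3 and 85 without crwn1/2 replicate 2.

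The longest region of WT alone was chr2:4762501-4775249, 12.75 kb long and inside the window of chromosome 2 just described. Peaks covered 11.55, 6.3 and 8.7 kb of it, with 810, 433 and 686 reads. The next was chr1:1767301-1778399 in the outer arm, 13.2 Mb from the centromere, covered over 11.1, 7.2 and 10.05 kb with 919, 530 and 887 reads. The third, chr1:13987201-13997549, lay 1.01 Mb from the centromere and was covered over 6, 8.85 and 8.25 kb with 445, 575 and 746 reads. In all 3, the density of 27.9 to 37.7 RPM per kb stood around the WT medians of 32.3 to 35.8.

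The crwn1/2 regions were shorter. In chr1:22012351-22019249 peaks covered 4.05, 1.8 and 1.8 kb, with 233, 41 and 70 reads. In chr1:12240901-12246449 they covered 5.55, 1.8 and 3.75 kb, with 363, 40 and 153 reads. In chr5:9169951-9175049, 2.53 Mb from the centromere, they covered 3, 1.8 and 3 kb with 156, 39 and 111 reads. The second also lay near a centromere, at 2.76 Mb.

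Read density was compared last. Raw median density was 77.9, 79.0 and 91.3 reads per kb in WT and 65.3, 27.9 and 45.8 reads per kb in crwn1/2, in the same order as the reads in peaks. Scaled to RPM per kb it was 35.5, 35.8 and 32.3 in WT and 41.0, 54.4 and 39.9 in crwn1/2. The mean was 34.5 ± 1.93 against 45.1 ± 8.09 (SD, n = 3; exact permutation p = 0.1, adjusted 0.122), a ratio of 1.31 with no overlap. Raw density was thus lower and scaled density higher in crwn1/2. Scaled density divides by reads in peaks, and fewer covered bases raise it, so its direction rests on the scaling.

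The scaled excess was present in each width class, with crwn1/2 over WT ratios from 1.41 for peaks under 1 kb to 1.26 for peaks of 10 to 20 kb. It was present in each zone, from 29% beyond 10 Mb to 31.7% within 2 Mb of the centromere, and on each chromosome, with ratios of 1.23 to 1.25 in mean density. The widest peaks were denser than narrow ones in both genotypes. In WT it was 32.4 ± 1.72 RPM per kb for peaks of 1 to 2 kb and 51.4 ± 3.13 for peaks of 20 kb or more, and in crwn1/2 it was 43.7 ± 7.23 and 65.1 ± 10.7 (SD, n = 3).

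In the regions of all 6 lists, 174 of 2311 (7.53%) were denser in crwn1/2 by edgeR with covered length as an offset. The lists did not overlap in 1084 regions (46.9%). None was less dense by edgeR or by DESeq2, and 6 were less dense at an unadjusted p under 0.05, against 771 denser. The median log2 change over all regions was 0.24. Relative to the median region of each list, a scaling chosen after seeing the data that takes the shared shift out of every region, 41 of the 174 were still called denser, 133 were no longer called and 0 turned to less dense. Another 140 regions were then called less dense. In simulated data without a shared shift, 20.2% of the calls of this density fit were of regions left unchanged, above the nominal 5%. The rate among the 174 was not measured. Of the 174, 92 lay from 2 to 5 Mb of the centromere (12.7% of regions there) and 7 beyond 10 Mb (1.22%). A negative change of length was seen in 109 of the 174, a smaller share than the 79% of all 2311 regions. The fit of the same counts without the length offset called 60 of the 174 higher in reads, against 4.37% of all 2311 regions. As the counts are the same, this overlap is not separate support. Only 1 of the 174 was also called shorter, against 1.82% of all. The count was 0 without WT replicate 1 or 3, 16 without WT replicate 2, 7 without crwn1/2 replicate 1, 452 (430 denser) without crwn1/2 replicate 2 and 442 (441 denser) without crwn1/2 replicate 3.

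Region chr5:9205051-9222749, a 17.7 kb domain 2.49 Mb from the centromere, was among the 3 largest changes both in density and in reads. Its density was 29.7, 27 and 24.1 RPM per kb in WT and 44.4, 51.7 and 39.9 in crwn1/2 (log2 change 0.69, SE 0.14, edgeR adjusted p = 0.00165). Its reads were 209, 219 and 94.1 RPM in WT and 785, 434 and 544 RPM in crwn1/2 (log2 change 1.75, SE 0.34, edgeR adjusted p = 0.0217). Every crwn1/2 list was above every WT list in both measures, which rest on the same counts. Region chr3:10286701-10291349 had a density of 27.8, 29.7 and 23.8 in WT and 39.2, 43.0 and 53.2 in crwn1/2 (log2 change 0.71, SE 0.17, edgeR adjusted p = 0.00596). Region chr3:8482801-8493299 had 39.6, 40.9 and 33.9 in WT and 44.8, 88.0 and 68.9 in crwn1/2 (log2 change 0.70, SE 0.15, edgeR adjusted p = 0.00196). The 3 density calls held relative to the median region as well, and were lost without WT replicate 1 or 3.

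Without the offset for length, 192 regions passed by edgeR (8.31%), of which 101 (4.37%) held more and 91 (3.94%) held fewer of the reads in crwn1/2, and the median log2 change was -0.01. Lists did not overlap in 659 regions (28.5%). As for the windows, higher and lower are relative to the reads in peaks of each list. Higher regions were 1 of 70 tested within 2 Mb, 58 of 722 from 2 to 5 Mb, 42 of 946 from 5 to 10 Mb and 0 of 573 beyond 10 Mb. Lower regions were 2, 13, 39 and 37 in the same zones. From 5 to 10 Mb both counts were near the shares over all regions. Of the 42 shorter regions, 39 were also lower in reads. Reads were summed only inside called peaks, so they fall with the length called, and this overlap is not separate support. The count of 192 was 9 without WT replicate 1, 21 without WT replicate 2, 11 without WT replicate 3, 107 without crwn1/2 replicate 1, 364 (185 higher and 179 lower) without crwn1/2 replicate 2 and 22 without crwn1/2 replicate 3.

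The largest gain of reads was in chr3:10801651-10816049, 2.79 Mb from the centromere, with 90.6, 56.2 and 88.8 RPM in WT and 485, 187 and 428 in crwn1/2 (log2 change 2.21, SE 0.38, edgeR adjusted p = 0.0148). In chr2:1332751-1340399, 2.26 Mb from the centromere, the values were 59.7, 80.7 and 35.0 in WT and 284, 91.5 and 217 in crwn1/2 (log2 change 1.76, SE 0.45, edgeR adjusted p = 0.0448). With chr5:9205051-9222749, all 3 gains lay within 3 Mb of a centromere, and in each crwn1/2 replicate 2 was the lowest crwn1/2 list. Each of the 3 calls was lost on leaving out any 1 WT list, with edgeR adjusted p of up to 0.183.

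The largest loss of reads was in chr2:10880701-10889699, 7.29 Mb from the centromere. It held 348, 260 and 280 RPM in WT and 70.9, 70.1 and 60.1 in crwn1/2 (log2 change -2.18, SE 0.23, edgeR adjusted p = 0.00318). Region chr2:16430251-16439549, one of the 3 most shortened, held 325, 228 and 239 RPM in WT and 70.9, 52.6 and 71.4 in crwn1/2 (log2 change -2.04, SE 0.26, edgeR adjusted p = 0.00612). Its loss of reads is not independent of its loss of called length. In both regions the 3 crwn1/2 lists lay close together and far below WT, and the calls held on leaving out any single list, with edgeR adjusted p of at most 0.0388. Region chr1:6865501-6886049 held 806, 613 and 722 RPM in WT and 48.9, 267 and 258 in crwn1/2 (log2 change -2.02, SE 0.47, edgeR adjusted p = 0.035), with replicate 1 the lowest. Its call was lost without WT replicate 2 or 3 or crwn1/2 replicate 3, with edgeR adjusted p of up to 0.121.

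The genotype effect of endosperm was set against that of leaf nuclei by permuting the genotype within each tissue. Covered length in leaf was 23.2 ± 0.235 Mb in WT and 24.2 ± 2.52 Mb in crwn1/2 (SD, n = 3), with crwn1/2 values on both sides of WT. The endosperm effect minus the leaf effect was -5.58 Mb (exact permutation p = 0.045, adjusted 0.248). For median scaled density the difference of effects was 11.4 RPM per kb (exact permutation p = 0.04, adjusted 0.248), and for the share of reads within 2 Mb of the centromere it was -0.582 percentage points (exact permutation p = 0.03, adjusted 0.3). The differences for mean scaled density of chromosomes 1 and 4 had exact permutation p of 0.03 and 0.045, both 0.175 after adjustment. The share of covered length beyond 5 Mb differed by -1.17 percentage points in leaf against -2.78 in endosperm (exact permutation p of the difference 0.395, adjusted 0.66). No difference between the tissues passed 0.05 after adjustment, although 400 splits allow a p as low as 0.005. Without leaf crwn1/2 replicate 3, the difference in covered length was -7.03 Mb with an adjusted exact p of 0.00786, and that in scaled density was 13.3 RPM per kb with the same adjusted p. Without leaf crwn1/2 replicate 2, the difference in the share of reads within 2 Mb was -0.714 percentage points with an adjusted exact p of 0.03. Each of these is 1 of 12 settings with a list left out, given because it passed, so it is no evidence of a tissue difference. Leaf crwn1/2 replicate 3 covered 21.3 Mb, against 25.5 and 25.9 Mb in replicates 1 and 2, so leaving it out widens the difference in covered length.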

How the data were processed

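Peaks were used as deposited, in 1 list per library, called without pooling of replicates per the file headers. The lists hold the authors' read count per peak, which is a deposited count of the H3K27me3 library, the deposited log2 enrichment over a control, and the deposited FDR, an adjusted p-value. Both are the authors' own values, used only to filter or describe peaks. The submitters' processing notes name Trim Galore 0.6.7, Bowtie2 2.3.4.1, SAMtools, Picard, SICER 0.0.52, DiffBind 3.8.4, deepTools, STAR 2.7.1a, HTSeq and the TAIR10 build, without saying which served which data. The 12 columns of control-library counts are tied to no sample by the labels and were not used. Which control served the calling is not given in the sources used here. Libraries for mRNA, H3 and IgG were not used here. Genes under peaks, the targeted genes and tissue markers were not analysed here, because the gene table at hand is of TAIR10.1.

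Peaks on chromosomes 1 to 5 were kept and organelle peaks left out. Peak edges lie on a grid of 150 bp, and lengths were taken to that grid. Depth is known only as reads in peaks. The weakest peak of a list held 19 to 55 reads. Density is reads per kb of peak, and scaled density is RPM per kb, where RPM stands for reads per 1000000 reads in peaks of the list. Centromere positions were taken, from general knowledge and rounded, as 15, 3.6, 13.6, 4 and 11.7 Mb on chromosomes 1 to 5, and a peak was placed by its centre.

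Summaries of a list were compared by an exact two-sided permutation test over the 20 splits of 3 against 3, and the difference between tissues over 400 splits within tissues, with Benjamini-Hochberg adjustment in each family (33 measures in all). Windows of 100 kb with a peak in any endosperm list, and regions (unions of peaks overlapping by at least 1 bp), were tested with limma 3.58.1 (trend) on kb covered per window or log2 covered length per region, and with edgeR 4.0.16 (quasi-likelihood, TMM, minimum count 10, minimum total 15) on counts, in R 4.3.3, at an adjusted p of 0.05 over all windows or regions. Density used the covered length as an offset. Only regions with a peak in all 6 lists were tested, since a list gives no count where it has no peak, while windows without a peak entered as 0. No pseudocount was added. DESeq2 1.42.0 was an alternative. Tested on simulated data with 200 features changed by a log2 fold of 1, the fits recovered 99.5% for reads per window, 89% for density and 99.5% for reads per region, and called 1.04%, 2.13% and 0.237% of the unchanged features. Of the density calls in this simulation, 20.2% were thus false. It used a fixed spread that was not estimated from these lists and no shift shared by all regions, so the rate among the 174 calls was not measured. The named density changes were at most 0.71 on the log2 scale, below the simulated 1, so recovery of changes of that size was not measured either.

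Named features were the 3 largest changes in each direction among those past the threshold, of at least 2 kb mean covered length and without overlap between genotypes, the 3 longest regions of each genotype alone and the 3 longest regions of all. The members and these rules were chosen with earlier results of these data known. The alternatives were the authors' FDR of at most 1e-05, a log2 enrichment of at least 1, peaks of at least 1 kb, joining peaks within 1 kb, leaving out each list, the replicate number as a block, windows of 50 and 500 kb, other scalings and filters, coverage of at least 50% of a region, centromeres moved by 0.5 Mb and long peaks of 5 or 20 kb.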

Additional observations from a re-analysis of the deposited data

Results flagged for a closer look

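The endosperm lists also held peaks on the organelle genomes, which no comparison above used. They took 1.49% of all peak reads in WT replicate 1, 2.76% in WT replicate 2 and 1.43% in WT replicate 3. In crwn1/2 they took 3.22% in replicate 1, 1.10% in replicate 2 and 1.20% in replicate 3. The genotypes overlapped, and 2 to 7 such peaks stood in a list. These values were singled out because they lie outside chromosomes 1 to 5 and above 0 in every list; their part in other results was not tested.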

How the results depend on the processing

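Depth limited the comparison: reads in peaks followed the genotype, and only they were known. Over 389 alternative values of 33 list measures, 381 kept their direction and 8, in 5 measures, did not. Much of this tally was fixed in advance and does not measure robustness. The replicate block leaves a difference of means as it is, and leaving out a list cannot reverse a measure whose lists do not overlap. The shares within and beyond 5 Mb of the centromere are also complements of each other. The chromosome 1 share difference was 0.009 percentage points, and -0.222 to 0.18 with single lists left out. That of chromosome 2 was -0.0924 at the stricter FDR and -0.0116 to 0.305 with lists left out, and that of chromosome 4 was -0.354 at a log2 enrichment of at least 1. The number of peaks differed by 489 (crwn1/2 minus WT) at that enrichment. The outermost 1 Mb of the arms differed by -0.574 to 0.0498 percentage points with lists left out. The cause was not tested for any of these.

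Counts of windows by coverage, 189 in all, were 291 at the stricter FDR, 0 at the log2 enrichment of at least 1 (limma; no other tool was run), 112 with 500 kb windows, 123 with equal covered length and 79 to 144 with single lists left out. Counts of windows by reads, 103 in all, were 1 at the enrichment of at least 1, 17 with 50 kb windows, 65 with 500 kb windows, 257 with DESeq2 and 0 to 172 with lists left out. Counts of denser or less dense regions, 174 in all, were 95 at the enrichment of at least 1, 76 for peaks of at least 1 kb, 99 with peaks joined, 114 with DESeq2 size factors, 45 with reads in peaks as library size and 0 to 452 with lists left out. Counts of regions by reads, 192 in all, were 0 at the enrichment of at least 1, 323 with DESeq2 and 9 to 364 with lists left out. Counts of regions by length, 42 in all, were 4 at the enrichment of at least 1, 6 where each list covered at least 50% of the region and 0 to 82 with lists left out. The median log2 change of density was -0.00053 relative to the median region. That of reads per region was 0.0047 where each list covered at least 50%, 0.0303 with reads in peaks as library size and -0.0197 to 0.022 with lists left out.

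Regions in every list, 2311, were 592 at the enrichment of at least 1 and 1062 where coverage of at least 50% was asked. Regions of WT alone, 171, were 27 and 295 under these settings, and 245 to 314 with lists left out. Regions of crwn1/2 alone, 12, were 4 at the stricter FDR, 29 at the enrichment of at least 1, where they outnumbered those of WT, and 20 to 85 with lists left out. For the tissue difference, ranges with lists left out were -7.03 to -3.8 Mb for covered length, 6.78 to 14.1 RPM per kb for scaled density, 6.97 to 14.3 and 6.57 to 13.9 RPM per kb for that of chromosomes 1 and 4, and -0.714 to -0.432 percentage points for reads within 2 Mb. The named windows and regions gave 267 alternative values, of which 195 kept the call, 72 kept the direction without it and 0 reversed. A feature with no tested counterpart under a setting gave no value, so features that vanished are not counted. At the enrichment of at least 1 there were only 7 values, of which 5 lost the call, and at the stricter FDR only 12. The features were picked for large changes without overlap, so reversals were unlikely from the start.

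Whether the replicate numbers pair the samples was not settled, and the main fits took the lists as unpaired. In window coverage, correlations of deviations were 0.0619, 0.107 and 0.168 for same-numbered lists. For lists of different numbers they were -0.117 to -0.025, so there each list correlated best with its own number. In covered length per region, those of same-numbered lists were 0.0482, -0.0212 and 0.0338. With the replicate block, counts were 238 for window coverage, 0 for window reads, 551 for density (549 denser), 75 for reads per region (44 higher) and 0 for length.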
